A study of Mus musculus with 5 samples.

Results

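A set of 9 genes known as markers of long-term or dormant hematopoietic stem cells (HSCs) were followed through bulk RNA sequencing of sorted mouse HSCs with or without the RNA-binding protein SYNCRIP. They were Fgd5, Ctnnal1, Mllt3, Robo4, Esam, Eng, Sult1a1, Pdzk1ip1 and Cd81, chosen by name as 9 of the 24046 genes in the table. Robo4, Esam, Eng, Pdzk1ip1 and Cd81 encode membrane proteins, while the products of Fgd5, Ctnnal1, Mllt3 and Sult1a1 act inside the cell, so the set is called long-term HSC genes here rather than surface genes.

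The WT group was Syncrip flox/flox, Mx1 Cre- (3 libraries, WT 1, WT 2 and WT 3) and the KO group was Syncrip flox/flox, Mx1 Cre+ (2 libraries, KO 2 and KO 3). Both groups therefore carried the floxed allele, in which exons 3 and 4 are flanked by loxP sites, and both received polyinosinic:polycytidylic acid (pIpC), an interferon inducer that switches on Cre from the Mx1 promoter in many cell types. Per the study, marrow of donors aged 6 to 8 weeks was placed in lethally irradiated CD45.1 congenic recipients. These were females, also aged 6 to 8 weeks, and pIpC was given at 10 mg/kg after 6 weeks of engraftment. Harvest was 9 weeks after the transplant, which was 3 weeks after pIpC, and the sorted fraction was CD45.2+ (donor) Lin- Sca1+ cKit+ CD150+ CD48-, so that any unexcised donor HSC would remain in the KO gate while host cells would not. The labels do not say whether each library came from its own animal, and p-values then measure only the spread between these libraries.

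Long-term HSCs are rare cells that divide seldom and rebuild all blood lineages after transplantation. Many genes that mark them are shared with blood vessel endothelium, to which HSCs are related in development. Fgd5, Robo4, Esam and Eng belong to that shared group, Pdzk1ip1 and Cd81 encode small membrane proteins, and Mllt3 encodes a nuclear protein that helps HSCs keep their identity.

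The start regions of the genes fell into a CpG-rich and a CpG-poor class, and 4 are shown to let a reader see the contrast beside the values. RefSeq (GRCm38.p6) gave a window of 250 bases before to 50 after the start for 8 of the 9 genes, with none for Esam, and Mllt3 had a second window, so that 9 windows were scanned. Capitals mark matches, on either strand, to 4 motifs. The letters GGAAG are the core that ETS factors bind. An E box was searched as CAGCTG. The GC box, bound by SP factors, was searched as GGGCGG. The TATA box was searched as TATAAA. In Cd81 a GC box and a GGAAG match overlap. The Fgd5 window lies on the plus strand at chr6:91978715-91979014, the Cd81 window on the plus strand at chr7:143052500-143052799, the Eng window on the plus strand at chr2:32646345-32646644 and the Robo4 window on the plus strand at chr9:37401722-37402021.
Fgd5: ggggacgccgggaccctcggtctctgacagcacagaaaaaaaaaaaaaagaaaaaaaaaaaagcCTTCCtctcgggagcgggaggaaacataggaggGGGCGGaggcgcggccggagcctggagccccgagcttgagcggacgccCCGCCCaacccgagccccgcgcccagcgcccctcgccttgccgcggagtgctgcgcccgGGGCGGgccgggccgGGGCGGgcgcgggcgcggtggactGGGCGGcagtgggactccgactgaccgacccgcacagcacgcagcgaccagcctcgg
Cd81: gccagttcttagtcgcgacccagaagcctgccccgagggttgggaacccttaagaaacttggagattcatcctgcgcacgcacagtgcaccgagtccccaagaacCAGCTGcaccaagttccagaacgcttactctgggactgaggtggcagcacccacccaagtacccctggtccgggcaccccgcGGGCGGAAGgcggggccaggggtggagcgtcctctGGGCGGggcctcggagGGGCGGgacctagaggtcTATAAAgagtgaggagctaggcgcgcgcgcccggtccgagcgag
Eng: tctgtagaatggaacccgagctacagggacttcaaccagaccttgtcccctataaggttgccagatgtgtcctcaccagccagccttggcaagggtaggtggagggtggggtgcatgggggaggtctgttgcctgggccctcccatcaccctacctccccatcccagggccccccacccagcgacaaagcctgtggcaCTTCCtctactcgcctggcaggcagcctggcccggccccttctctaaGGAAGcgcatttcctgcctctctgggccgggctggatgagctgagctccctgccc
Robo4: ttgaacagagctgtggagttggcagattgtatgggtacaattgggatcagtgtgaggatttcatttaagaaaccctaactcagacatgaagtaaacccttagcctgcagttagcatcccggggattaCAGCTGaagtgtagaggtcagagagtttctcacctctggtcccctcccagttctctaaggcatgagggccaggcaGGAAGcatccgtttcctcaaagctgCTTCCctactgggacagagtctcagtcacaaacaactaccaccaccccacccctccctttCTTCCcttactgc

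The Fgd5 window held 37 CpG pairs and the Cd81 window 23, against 6 for Eng and 2 for Robo4. Of the others, Mllt3 (29 in its first window) and Ctnnal1 (24) were CpG-rich, while Pdzk1ip1 (3) and Sult1a1 (0) were CpG-poor, and the median over all 32851 windows was 7. GC boxes stood in 4 of the 9 windows (35.7% of all windows), all of them CpG-rich. GGAAG stood in 6 of the 9 (71.4% of all windows), with 3 matches in Robo4. CAGCTG stood in 4 of the 9 (16.3% of all) and TATAAA in 1, that of Cd81 (13.6% of all). A motif of the blood factor GATA2, searched as the letters AGATAA, stood in none of the 9 (11.2% of all).

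The libraries held 12539599 (KO 3) to 22779536 (WT 3) recovered reads. Values are the deposited normalized read counts, in which the reads of a library were divided by 1 size factor, and 1 read was worth 0.833 to 1.52 units. Syncrip itself measured 1944, 1440 and 1794 in WT and 294 and 343 in KO, the direction the labels give. The gate markers Ly6a, Kit and Slamf1 were present in every library, and Cd48, the gene of a protein gated against, was present too (601 to 768 in WT, 460 in KO 2 and 191 in KO 3). Transcripts of 6 neutrophil granule genes, which mark cells outside the HSC gate, took 4.13 to 5.01% of reads in WT, 3.00% in KO 2 and 1.15% in KO 3, and 4 of the 6 had both KO values below all WT values (23.2% of all genes tested). Transcripts of 6 adipocyte genes were all highest in KO 2, where Ucp1 measured 5622 against 0 in every other library, and they summed to a normalized count of 18880 in KO 2 and at most 181 elsewhere. In bulk libraries fewer cells of a type and less RNA per cell cannot be told apart.

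All 9 genes passed the filter on low values, and all 9 had a log2 fold change above 0, where 51.1% of the 13661 genes tested did. None passed an adjusted p of 0.05 with limma, which called 0.00732% of all genes tested (Syncrip alone), and none with edgeR, which called 0.0146%. At an unadjusted p under 0.05, 1 of the 9 (Eng) passed with limma, as did 3799 genes in all (27.8%), and 1 of the 9 passed with edgeR, as did 27.2% of all genes. DESeq2, run on the recovered reads, called 1 of the 9 higher in KO, Eng, where it called 9.54% of 11837 genes higher, and called none of the 9 lower, where it called 9.81% lower. The median log2 fold change was 0.47 over the 9 and 0.02 over all genes tested.

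**Figure D1:**
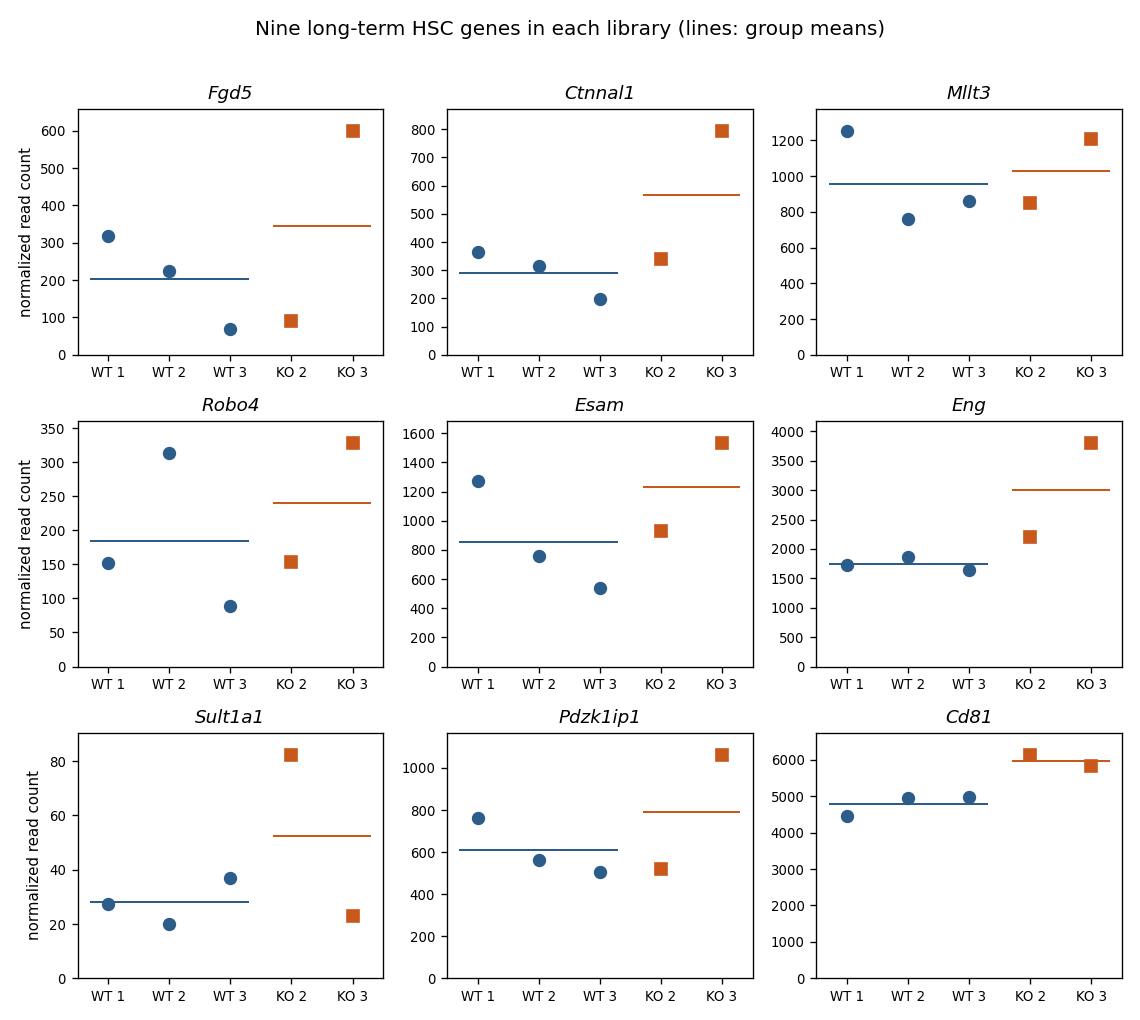
Normalized read counts of the 9 genes (y axis, linear from 0, a scale of its own in each panel) in the 3 WT libraries (blue circles) and the 2 KO libraries (orange squares), with lines at the group means. Eng and Cd81 have both KO points above all WT points, while Fgd5, Robo4, Esam and Pdzk1ip1 spread widely within a group.

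Among the surface receptors, Eng came closest to a difference between the groups. It encodes endoglin, a co-receptor for TGF-beta family ligands, and lies on chr2:32646595-32682669, plus strand (GENCODE M21, GRCm38). Eng measured 1730, 1864 and 1635 in the WT libraries, 2202 in KO 2 and 3801 in KO 3. Both KO libraries stood above all WT libraries, KO 3 by much more than KO 2. The log2 fold change was 0.73 (SE 0.24, 95% interval 0.18 to 1.29), with an adjusted p of 0.110 by limma and 0.111 by edgeR. DESeq2 gave 0.78 (SE 0.27) and an adjusted p of 0.0287. After a trend on the length and GC content of transcripts was taken out, limma gave Eng a log2 fold change of 0.18 (adjusted p 0.593). That DESeq2 call was lost when any 1 WT library was left out, at a similar log2 fold change: 0.77 without WT 1 (adjusted p 0.110), 0.83 without WT 2 (0.0758) and 0.73 without WT 3 (0.175). Without KO 3 the fold change itself dropped to 0.34 (adjusted p 0.535), and without KO 2 it was 1.12 (adjusted p 1.6e-05). The annotated ends of Eng and of Fpgs, an enzyme gene of folate metabolism on the opposite strand, overlap by 61 bases, and the kit does not mark strand, so reads there cannot be told apart. Fpgs measured 1353, 1336 and 1487 in WT and 2188 and 2252 in KO (DESeq2 log2 fold change 0.67, adjusted p 0.00523).

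Esam encodes an immunoglobulin-type adhesion molecule of endothelium, platelets and HSCs (chr9:37528078-37538319, plus strand). It measured 1272, 755 and 542 in WT 1 to WT 3, and 926 in KO 2 and 1532 in KO 3. KO 3 lay above the WT range and KO 2 inside it. Its log2 fold change of 0.57 (SE 0.37, 95% interval -0.28 to 1.41) had a limma adjusted p of 0.339. When a library was left out, it ran from 0.20 (without KO 3) to 0.93 (without KO 2).

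Robo4, a Roundabout-family receptor of endothelium that also takes part in HSC homing (chr9:37401897-37415115, plus strand), measured 152, 313 and 88.3 in WT, 153 in KO 2 and 328 in KO 3. KO 3 lay just above WT 2, and KO 2 fell between WT 1 and WT 2. The log2 fold change was 0.47 (SE 0.56, 95% interval -0.80 to 1.75) with a limma adjusted p of 0.602. Endothelial markers varied among the same libraries: Cdh5, the vascular cadherin, measured 32.1 in WT 2 and 54.5 in KO 2, against 0 in WT 1 and WT 3 and 1.52 in KO 3. The 12-gene endothelial list took 0.00935 to 0.0151% of reads in WT, 0.0140% in KO 2 and 0.0223% in KO 3, with KO 2 above all WT libraries in 5 of the 12 (32.8% of all genes tested) and KO 3 in 2 (40.0% of all). Mmrn2, another endothelial marker, measured 39.1 in WT 2 and 47.3 in KO 2 and was listed at 0 in WT 1, WT 3 and KO 3. Of the 12, 4 were highest in KO 2, while Flt4 (76.4 in WT 2) and Stab2 (22.6 in WT 2) stood at 0 there. Emcn was highest in WT 1 (147, against 46.9 in WT 2 and 61.7 in KO 2). The median of the list in WT 2, the WT library where Robo4 was highest, lay 2.32 log2 units above the other WT libraries. Egfl7, an endothelial secreted factor gene also on the list, went the other way and was the only one of the 12 that DESeq2 called (9.54% of all genes were called higher), at 1194, 1018 and 904 in WT, 1308 in KO 2 and 2924 in KO 3 (log2 fold change 1.03, adjusted p 0.0250). It made up 2924 of the list's summed value of 4254 in KO 3. With the length and GC trend removed, limma took Egfl7 from 0.92 to 0.42. The part of endothelial RNA in the Robo4 and Esam values was not tested.

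Esam and Robo4 lie 113 kb apart on chromosome 9, with Robo3 and Msantd2 between them. Robo3, whose annotated end is 0.6 kb from that of Robo4 on the opposite strand, measured 45.8, 42.5 and 28.3 in WT and 41.1 and 111 in KO (log2 fold change 0.81, limma adjusted p 0.395).

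Cd81 encodes a tetraspanin, a membrane organizer, and was the most abundant member (chr7:143052739-143067934, plus strand). It measured 4451, 4939 and 4973 in WT, 6134 in KO 2 and 5827 in KO 3. The groups did not overlap, and the KO libraries lay close together. The log2 fold change was 0.32 (SE 0.16, 95% interval -0.04 to 0.69) with a limma adjusted p of 0.224 and a DESeq2 adjusted p of 0.160. R74862, a transcript that overlaps Cd81 by 948 bases on the opposite strand, measured 551 to 641 in WT and 813 and 1004 in KO, and reads from the shared stretch cannot be assigned to either gene.

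Pdzk1ip1 encodes a small PDZ-binding membrane protein (chr4:115088708-115093899, plus strand) and measured 762, 563 and 506 in WT, 519 in KO 2 and 1062 in KO 3. KO 2 lay within the WT range and KO 3 above it. Limma gave a log2 fold change of 0.30 (SE 0.33, 95% interval -0.46 to 1.07) with an adjusted p of 0.573. Its nearest gene at lower coordinates, 17.0 kb away, is Tal1, a master factor of blood stem cells, which measured 868, 1145 and 1203 in WT and 1366 and 1888 in KO (log2 fold change 0.60, DESeq2 adjusted p 0.0853).

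Of the members that act inside the cell, Fgd5, a guanine nucleotide exchange factor for CDC42 and an HSC reporter gene (chr6:91978878-92076004, plus strand), measured 318, 223 and 67.7 in WT, 90.5 in KO 2 and 598 in KO 3. The KO libraries differed 6.62-fold and straddled the WT mean, the widest KO spread of the set. Limma gave Fgd5 a log2 fold change of 0.46 (SE 0.84, 95% interval -1.47 to 2.39) with an adjusted p of 0.742. The antisense transcript 4930466I24Rik, which overlaps Fgd5 by 3724 bases, was not analysed here.

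Ctnnal1, a relative of alpha-catenin (chr4:56810935-56865188, minus strand), measured 364, 314 and 197 in WT, 340 in KO 2 and 793 in KO 3. Its log2 fold change of 0.88 (SE 0.42, 95% interval -0.07 to 1.83) was the largest of the 9 with all libraries, with a limma adjusted p of 0.206. That rank rested on both KO libraries: Ctnnal1 was at 0.27 without KO 3 (Sult1a1 1.56) and at 1.49 without KO 2 (Fgd5 1.82). KO 2 lay within the WT range.

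Mllt3, a reader of acylated histones in the super elongation complex (chr4:87769925-88033364, minus strand), measured 1251, 762 and 861 in WT, 848 in KO 2 and 1206 in KO 3. Both KO values lay within the WT range. With limma the log2 fold change was 0.11 (SE 0.27, 95% interval -0.51 to 0.73) with an adjusted p of 0.810.

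Sult1a1, a cytosolic sulfotransferase (chr7:126672865-126676432, minus strand), was the least abundant, at 27.5, 20.0 and 36.8 in WT, 82.2 in KO 2 and 22.8 in KO 3. It was the only member lower in KO 3 than in KO 2 by over 2-fold, and KO 2 is the library with adipocyte transcripts. Their part in the Sult1a1 value was not tested. The value rests on 33, 23, 43, 80 and 15 reads. Sult1a1 overlaps Sgf29 (Ccdc101 in the table), a chromatin gene on the opposite strand, by 61 bases, and Sgf29 measured 1147, 1057 and 896 in WT and 1187 and 1388 in KO. The log2 fold change was 0.65 (SE 0.71, 95% interval -0.97 to 2.27) with a limma adjusted p of 0.567.

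The KO libraries differed from each other across most of the 9 genes, with KO 3 above KO 2 in 7 of the 9 (49.6% of all genes tested). Both KO values lay above all WT values in 2 of the 9 (Eng and Cd81), where 23.9% of all genes tested did, and below them in none, where 23.2% did. KO 3 alone lay above all WT libraries in 7 of the 9 (40.0% of all genes tested) and KO 2 alone in 3 (Eng, Sult1a1 and Cd81; 32.8% of all). In 6 of the 9, namely Fgd5, Ctnnal1, Robo4, Esam, Eng and Pdzk1ip1, KO 3 was the highest library and WT 3 the lowest, a pattern that 14.4% of all genes tested showed. Without KO 2, limma called 2 of the 9 higher in KO, Ctnnal1 (log2 fold change 1.49, adjusted p 0.0235) and Eng (1.13, adjusted p 0.00638), where it called 12.2% of 13394 genes higher, and the spread then came from the WT libraries alone. Without KO 3, 5 of the 9 had a log2 fold change above 0, near the 50.9% of all genes in that fit.

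**Figure D2:**
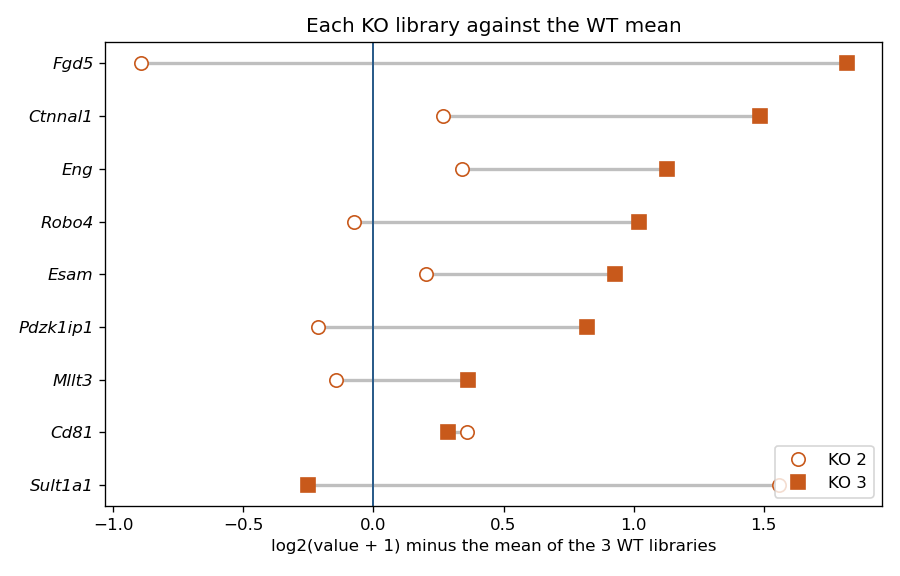
Difference of KO 2 (open circles) and KO 3 (filled squares) from the mean of the 3 WT libraries for the 9 genes, in log2 units on the x axis. KO 3 runs from -0.25 (Sult1a1) to 1.82 (Fgd5) and KO 2 from -0.89 (Fgd5) to 1.56 (Sult1a1).

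The median difference of the 9 genes from the WT mean was 0.20 in KO 2 and 0.93 in KO 3, in log2 units. Within WT, each library was set against the other 2. WT 1 had a median of 0.51 and WT 2 of 0.07, while that of WT 3 was -0.37, so WT libraries also differed from each other. The median coefficient of variation within WT was 29.3% for the 9 genes and 16.9% for all genes tested. Robo4 (63.0%) and Fgd5 (62.3%) varied most and Cd81 (6.10%) least. The mean centred profile of the 9, in log2 units, peaked in KO 3 (0.64) and was lowest in WT 3 (-0.56), with WT 1 (0.08), KO 2 (-0.04) and WT 2 (-0.12) between them. The neutrophil share was highest in WT 3 and lowest in KO 3. Among the other libraries, WT 1 had the highest share (4.40%, against 4.13% in WT 2 and 3.00% in KO 2) and also the highest profile value. The part of the neutrophil share in the profile was not tested.

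**Figure D3:**
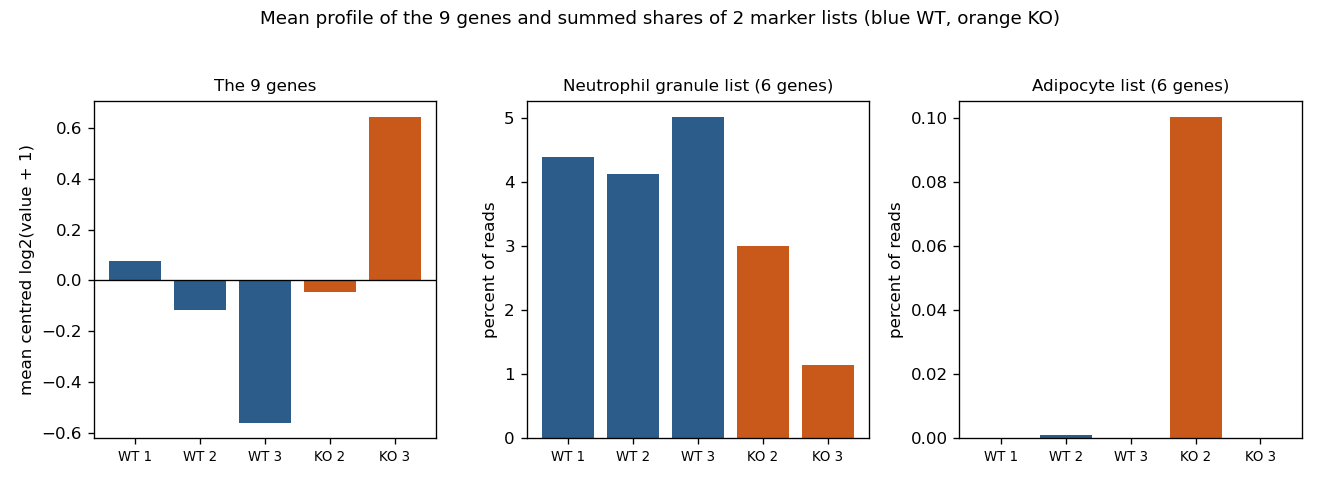
Left, mean centred log2(value + 1) of the 9 genes in each library; middle and right, summed percent of reads in 6 neutrophil granule genes and in 6 adipocyte genes (WT blue, KO orange). KO 3 holds the highest profile value (0.64) and the lowest neutrophil share (1.15%), WT 3 the lowest profile value (-0.56) and the highest share (5.01%), and adipocyte transcripts stand out in KO 2. Of the other libraries, WT 1 has the highest profile value (0.08) and the highest neutrophil share (4.40%).

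The genes with the profile most like the mean of the 9, by the smallest root mean square difference over the 5 libraries among 10543 genes that averaged 100 or more, were Fbxo17 (0.028), Angptl6 (0.035), Capn5 (0.062), Dph1 (0.073) and Shisa5 (0.074). Of the 9 themselves, Pdzk1ip1 (0.175) lay closest to that mean and Sult1a1 (0.904) and Fgd5 (0.830) farthest.

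In WT, levels per kilobase of the longest annotated transcript ran from 2979 ± 182 for Cd81 to 20.5 ± 6.18 for Sult1a1 (mean ± SD, n = 3). Pdzk1ip1 followed Cd81 at 541 ± 119, then Eng at 509 ± 33.7 and Esam at 459 ± 201. The WT ranges of these last 3 neighbours overlapped, so their order was not resolved. Mllt3 (158 ± 42.6) and Ctnnal1 (76.9 ± 22.6) stood apart from the genes on either side except that Ctnnal1 overlapped Robo4 (37.2 ± 23.4). Robo4 overlapped Fgd5 (33.3 ± 20.7), and Fgd5 overlapped Sult1a1. Cd81 lay above 97.3% of all genes tested on this scale and Sult1a1 above 17.4%.

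**Figure D4:**
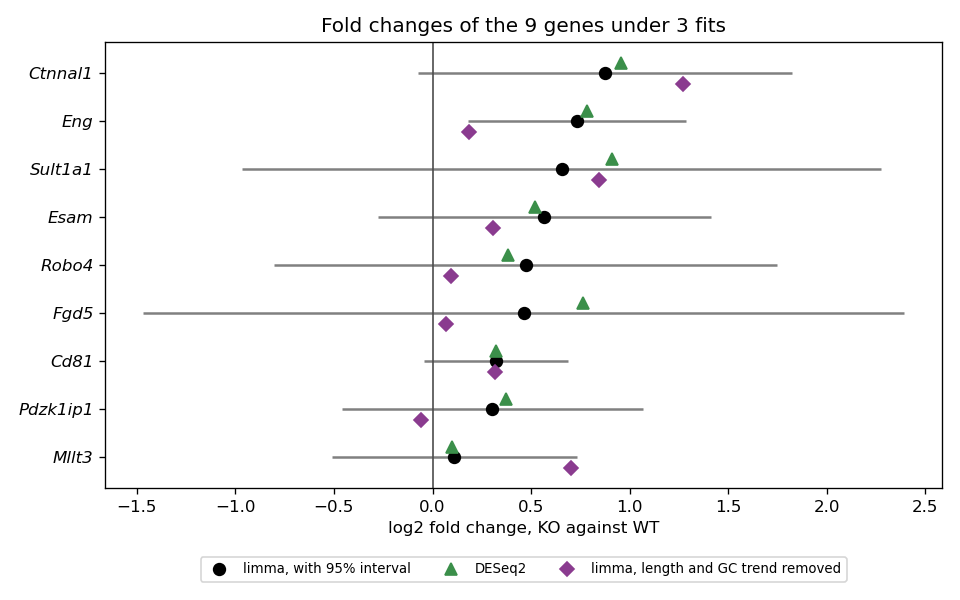
Log2 fold change of KO against WT for the 9 genes under limma (black, with the 95% interval), DESeq2 (green triangles) and limma after removing a trend on transcript length and GC content (purple diamonds). The limma interval includes 0 for 8 of the 9, and Eng moves from 0.73 to 0.18 when the trend is removed.

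Over all genes tested, fold changes were higher where transcript GC content was higher, from a median of -0.76 in the tenth of genes at 39.8% GC to 0.73 in the tenth at 59.9%. The 9 genes had a median GC of 53.7%, against 49.9% for all genes tested. With the trend on length and GC removed, 8 of the 9 kept a log2 fold change above 0 (48.7% of all genes in that fit) and the median became 0.31. Ctnnal1 (44.3% GC) moved to 1.27 and Mllt3 (41.4% GC) to 0.70, while Eng moved to 0.18, Robo4 to 0.09, Fgd5 to 0.07 and Pdzk1ip1 to -0.06. Cd81, at 50.3% GC, hardly moved, from 0.32 to 0.31.

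**Figure D5:**
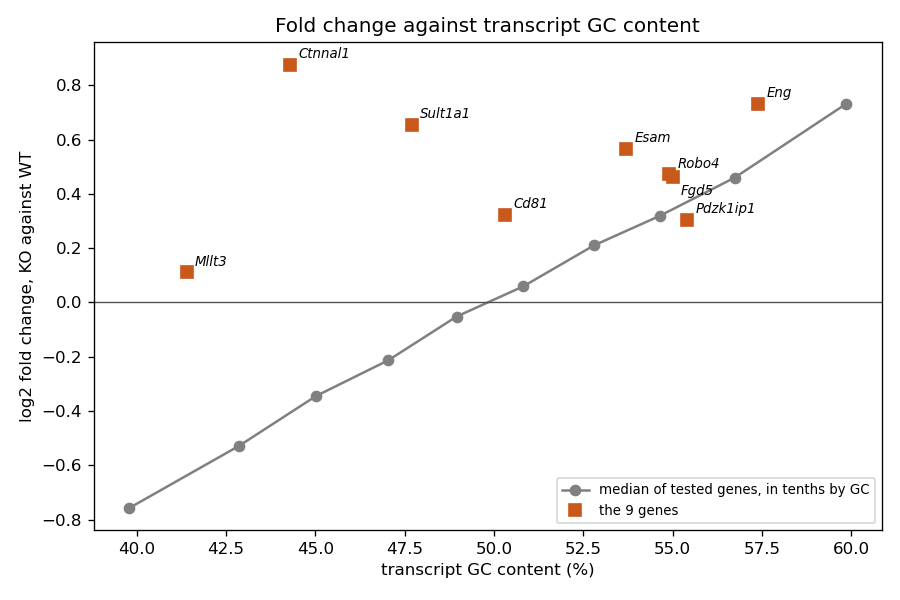
Log2 fold change (y axis) against transcript GC content in percent (x axis) for the 9 genes (orange squares) and the median of the genes tested in 10 equal groups by GC (grey line). The line climbs from -0.76 to 0.73, and 8 of the 9 genes lie above it, with Pdzk1ip1 just under it.

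By mean normalized read count, with no allowance for length, the highest relatives were Cdc42 for Fgd5, Ctnnb1 for Ctnnal1, Cdk9 for Mllt3, Robo3 for Robo4, F11r for Esam, Tgfb1 for Eng, Papss1 for Sult1a1, Slc9a3r1 for Pdzk1ip1 and Cd63 for Cd81. Relatives and partners of the 9 genes, from lists drawn by family and pathway, gave no call with limma among 44 tested of 58. DESeq2 called 4 higher and 7 lower among them, beside 9.54% and 9.81% of all genes. Of the Fgd5 group, Cdc42, the small GTPase that FGD proteins activate, measured 13410, 10830 and 13160 in WT and 7865 and 5042 in KO (DESeq2 log2 fold change -0.95, adjusted p 0.00323), Fgd4 was also lower (-1.60, adjusted p 0.00825) and Fgd1 higher (1.28, adjusted p 0.0246). Of the Eng group, the ligand gene Tgfb1 was higher (1.27, adjusted p 0.00212) and the receptor gene Tgfbr1 lower (-0.86, adjusted p 0.0189). Of the Cd81 group, the partner gene Igsf8 was higher (1.12, adjusted p 0.00644), and the tetraspanin genes Cd53 (-1.86, adjusted p 4.87e-05) and Cd9 (-0.56, adjusted p 0.0276) were lower. Of the Mllt3 group, Mllt1 was higher (0.75, adjusted p 0.0344) and Ell2 lower (-0.93, adjusted p 0.00886), and of the Ctnnal1 group Vcl was lower (-0.55, adjusted p 0.0372). Removing the length and GC trend moved many of these values under limma. Mllt1 went from 0.71 to -0.0027, Ell2 from -0.94 to -0.26, Tgfbr1 from -0.84 to -0.22 and Igsf8 from 1.06 to 0.44. Fgd1 went from 1.25 to 0.60, Fgd4 from -1.78 to -0.88, Cdc42 from -0.98 to -0.43, Cd9 from -0.57 to -0.25 and Cd53 from -1.94 to -1.21. Tgfb1 (1.21 to 1.02) and Vcl (-0.56 to -0.49) moved least. No relative of Robo4, Esam, Sult1a1 or Pdzk1ip1 was called by limma or DESeq2, and the 4 tested relatives of Esam (F11r, Jam2, Jam3 and Cxadr) all had log2 fold changes above 0. The genes Sult1b1, Sult1c2, Sult1d1 and Sult1e1 were listed at 0 in every library.

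A second list held 22 long-term HSC genes, 21 of them tested. Limma called none of them and DESeq2 called 2 higher, a share close to the 9.54% of all genes, Vwf (log2 fold change 1.90, adjusted p 1.35e-04), the gene of von Willebrand factor, and Gata2 (1.39, adjusted p 0.0138), a stem cell transcription factor. With the length and GC trend removed, limma gave Vwf 1.31 (from 1.83) and Gata2 0.68 (from 1.29). Of the 21, 17 had a log2 fold change above 0 (51.1% of all genes tested), and 14 were highest in KO 3 and lowest in WT 3 (14.4% of all). Their median difference from the WT mean was 0.15 in KO 2 and 1.24 in KO 3, a gap between the KO libraries in the direction that the 9 genes showed.

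Of the neighbours of the 9 genes in the genome, 14 were tested, limma called none and DESeq2 called 1 higher, Fpgs, a share close to the 9.54% of all genes. Nr2c2 beside Fgd5 (log2 fold change -0.45), Fam206a beside Ctnnal1 (-0.05) and Tspan32 beside Cd81 (-0.11) lay below 0, and the other 11 above it, where 51.1% of all genes tested lay.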

How the data were processed

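RNA was measured by SMART-Seq v4 libraries from sorted HSCs, 3 WT and 2 KO. The submitters' processing notes name STAR, featureCounts, DESeq2 and the build mm10; versions, annotation and strand setting are not given in the sources used here. The authors deposited a signal table in which read counts were divided by 1 size factor per library, and all positive values were whole multiples of it (within 0.01 read), which gave back 12539599 to 22779536 reads per library. Intervals cover the spread between libraries and not the counting of molecules, since reads carry no molecular identifiers. A second deposited table holds the authors' own fold changes and p-values and was not used.

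Values were tested as log2(value + 1) with limma 3.58.1 (R 4.3.3, empirical Bayes with trend), over the 13661 genes that reached 10 in 2 or more libraries, and Benjamini-Hochberg adjusted over all of them at 0.05. As the deposited values are normalized, edgeR 4.0.16 and DESeq2 1.42.0 ran on the recovered reads as alternatives. Other settings were pseudocounts, filters, TMM and quantile scaling, array weights, a trend on length and GC (available for 13524 genes, GENCODE M21), a replicate block and each library left out. The scripts were tested on simulated data. The members and lists were chosen with earlier results of these data known. Named genes were all 9, list genes called by limma or DESeq2, gate genes, the highest relatives, some genome neighbours and the 5 nearest profiles. Of the 4 adipocyte genes that DESeq2 called higher, only Ucp1 was named. Cdh5, Mmrn2, Flt4, Stab2, Emcn, Ppbp, Ucp1, Cebpa and R74862 were named after their values were seen. A result on 1 further list gene is not reported here.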

Additional observations from a re-analysis of the deposited data

How the results depend on the processing

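Over 17 alternatives, 141 of 152 fold changes of single members kept their direction and side of the threshold. Members past the threshold numbered 0 under limma, 1 by DESeq2 (Eng) and from 0 to 2 when a library was left out, 2 being without KO 2. All 9 members stayed above 0 under TMM and quantile scaling, edgeR, DESeq2 and the other pseudocounts. The median log2 fold change ran from 0.20 to 0.93 and the number of members whose groups do not overlap from 2 (without WT 3, 52.7% of all genes in that fit) to 7 (without KO 2, 78.8%) when a library was left out. Leaving out a library also turned the sign of 5 members. Fgd5 ran from -0.89 (without KO 3) to 1.82 (without KO 2) and was -0.19 without WT 3. Mllt3 ran from -0.14 (without KO 3) to 0.36 (without KO 2) and was -0.038 without WT 2. Robo4 ran from -0.075 to 1.02 and Pdzk1ip1 from -0.21 to 0.82, both lowest without KO 3 and highest without KO 2. Sult1a1 ran from -0.25 without KO 2 to 1.56 without KO 3. Removing the length and GC trend took Pdzk1ip1 to -0.060. Where an arm had 1 library, it was assumed to vary like the other group. By DESeq2, members called numbered 3 (Fgd5, Ctnnal1 and Eng) without KO 2, where 34.4% of all genes were called, and 0 without any other library, where 2.87 to 10.1% were. Sult1a1 had no adjusted p in those fits except without KO 3.

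Labels give only a replicate number, and the numbers were taken to name libraries only. Deviations of same-numbered libraries correlated at -0.06 (number 2) and -0.18 (number 3) across genes. With 2 KO libraries, the deviations of KO 2 and KO 3 mirror each other, so these values cannot decide whether a number stands for a shared batch. With the replicate block limma called 0 members and the median was 0.66, and it was 0.58 when that trend was taken out too. Depth limited Sult1a1 most, the least abundant member, which rested on 15 to 80 reads.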

Other observations

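Genes of other blood lineages also differed in places. Of 5 megakaryocyte genes, 4 had a log2 fold change above 0 (51.1% of all genes tested), while Ppbp stood at -0.41. DESeq2 called 3 of the 5 higher in KO, beside 9.54% of all genes. Pf4, a platelet chemokine gene, measured 1566, 2119 and 1307 in WT and 3305 and 5022 in KO (log2 fold change 1.32, adjusted p 4.27e-04). The others were Gp9 (1.37, adjusted p 0.0101) and Gp1bb (1.51, adjusted p 0.00710), both parts of the platelet receptor for von Willebrand factor. With the length and GC trend removed, limma took Gp1bb from 1.33 to 0.47 and Gp9 from 1.23 to 0.65, while Pf4 went from 1.32 to 1.37. Among 11 progenitor genes, of which 3 had a log2 fold change above 0, the lower calls of DESeq2 (9.81% of all genes) took in Dntt, an enzyme gene of lymphoid progenitors, at 491, 323 and 458 in WT and 108 and 175 in KO (-1.59, adjusted p 9.63e-04), and likewise Csf1r (-1.11, adjusted p 0.00694), a macrophage growth factor receptor gene. Cebpa, a myeloid transcription factor gene on the same list, had both KO values (1024 and 788) above the WT range of 445 to 726 (23.9% of all genes tested lay above). With the length and GC trend removed, limma took Cebpa from 0.57 to -0.35. Of the 6 neutrophil granule genes DESeq2 called 3 lower, beside 9.81% of all genes: Ltf (-1.14, adjusted p 0.00855), Lcn2 (-0.97, adjusted p 0.0192) and Ngp (-1.21, adjusted p 0.0103). Of 7 erythroid genes, 4 had a log2 fold change above 0 and 2 had both KO values below all WT values (23.2% of all genes tested), and DESeq2 called 1 lower, Car1, a carbonic anhydrase gene, at 15230, 17100 and 24050 in WT and 9703 and 5733 in KO (-1.28, adjusted p 8.07e-04). Of 4 lymphoid and 3 stromal genes tested, DESeq2 called none. The 5 genes of the stromal list summed to a normalized count of 1718 in WT 2, against 82.2 (KO 2) to 161 (WT 3) elsewhere. The part of stromal RNA in the WT 2 values was not tested. Limma called none of the genes of these lists.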
